A study of Mus musculus with 9 samples.

Results

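Genes that direct osteoblast formation and genes that carry out bone mineralisation were examined in bone marrow stromal cells after granulocyte colony-stimulating factor (G-CSF). Of 9 genes listed by name, 8 had a probe set of their own, out of 19938 genes with a probe set of 1 symbol. The measured genes were 3 of 4 regulators (Sp7, Dlx5 and Pth1r) and 5 of 5 effectors (Alpl, Phex, Ibsp, Dmp1 and Mepe), each with 1 probe set. Runx2, the remaining regulator, had no probe set under its symbol in the platform table and was not analysed here.

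The cells were CXCL12-abundant reticular (CAR) cells, stromal cells of the marrow rich in the chemokine Cxcl12. They were sorted as lineage-negative, GFP-bright cells from Cxcl12+/gfp mice, which carry a green fluorescent protein at the Cxcl12 locus. Both groups share this genotype, and the labels give neither the age of the mice nor the number of mice behind an array. The 9 Mouse Gene 1.0 ST arrays came from mice given G-CSF at 250 µg/kg/d (5 arrays) or phosphate-buffered saline (PBS) alone (4 arrays), each for 5 days. The gate takes all bright lineage-negative stroma, so an array averages over whatever cells it held.

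Osteoblasts form from mesenchymal progenitors under Runx2 and then Sp7 (osterix), with homeodomain factors such as Dlx5 acting beside them. Parathyroid hormone acts on the lineage through its receptor Pth1r. Alpl, tissue-nonspecific alkaline phosphatase, degrades the mineralisation inhibitor pyrophosphate, while Phex, a zinc metalloprotease of the cell membrane, restrains the phosphate-wasting hormone Fgf23. Ibsp, Dmp1 and Mepe are acidic secreted phosphoproteins of the SIBLING family, which bind mineral or regulate its growth. In the mouse RefSeq gene table (GRCm38.p6) these 3 genes lie next to each other on chromosome 5, flanked by the remaining family genes Dspp and Spp1. CAR cells include progenitors of osteoblasts.

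The sequences before the gene starts are shown for Phex, the member that passed the test, and for Ibsp, a member whose groups did not overlap. That of Mepe, a neighbour of Ibsp, is shown beside them. The Mepe groups overlapped, but their signal lay in the lowest 2.66% of probe sets, where an array may not resolve a change. Each run is the 250 bases before the start given by RefSeq (GRCm38.p6), 5′ to 3′ on the gene's strand. Capitals mark the Runx core ACCACA and the CCAAT box CCAAT on either strand.
Phex, chrX:157415287-157415536, minus strand: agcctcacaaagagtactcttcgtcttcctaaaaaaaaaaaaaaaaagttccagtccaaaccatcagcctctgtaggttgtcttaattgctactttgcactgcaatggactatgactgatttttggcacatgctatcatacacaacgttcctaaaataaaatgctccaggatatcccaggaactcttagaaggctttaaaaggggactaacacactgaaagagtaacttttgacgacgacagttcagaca
Ibsp, chr5:104299037-104299286, plus strand: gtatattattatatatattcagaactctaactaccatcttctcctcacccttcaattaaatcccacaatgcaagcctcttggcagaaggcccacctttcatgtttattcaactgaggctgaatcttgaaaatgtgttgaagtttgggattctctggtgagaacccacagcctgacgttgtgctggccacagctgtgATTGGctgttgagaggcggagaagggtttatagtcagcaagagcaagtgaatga
Mepe, chr5:104325079-104325328, plus strand: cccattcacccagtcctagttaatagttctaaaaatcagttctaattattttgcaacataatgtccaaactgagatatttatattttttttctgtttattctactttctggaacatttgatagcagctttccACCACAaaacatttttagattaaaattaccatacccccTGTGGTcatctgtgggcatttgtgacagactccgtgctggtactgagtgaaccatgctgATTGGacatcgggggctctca

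The Phex window held neither motif. Ibsp held 1 CCAAT box in reverse, starting 54 bases before the gene start, and no Runx core. Mepe held 2 Runx cores, starting 118 and 80 bases before the start, and 1 CCAAT box at 21 bases. Among 11 windows of the 7 listed genes in the promoter table, 3 held the Runx core (Runx2, Mepe and 1 of 2 for Dmp1), against 14% of 32851 windows of the same length. The CCAAT box was in 5 of the 11, against 33.8% of all windows. The GC box GGGCGG, bound by Sp factors and searched on both strands, was in 3 of the 11, all from Alpl or Pth1r, against 32.7% of all. The homeodomain core TAATTA, its own reverse complement, was in 1 of the 11, that of Mepe, against 4.84% of all. No motif searched contains another, and both Alpl windows lacked the Runx core and the CCAAT box. These matches describe the windows only.

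Every level is a log2 intensity from robust multi-array averaging (RMA), with errors as SD (4 PBS, 5 G-CSF arrays). A change is the G-CSF mean less the PBS mean in limma, in log2 units. The threshold was an adjusted p (Benjamini-Hochberg, over all 21789 probe sets of 1 symbol) below 0.05. Titles and treatments agree on the groups, but source names do not. They call all 9 samples pre-B colonies and give 4 of the 5 G-CSF samples an Hspa9+/- genotype, so groups follow the titles. Along principal component 1, which took 29.8% of the variance over all probe sets, the arrays fell into 2 sets that each held both treatments. Set 1 held G-CSF replicates 1 to 3 beside PBS replicates 1 and 2. Set 2 held the other 4 arrays, with PBS replicate 3 farthest out. The interquartile range of an array's log2 values was 2.79 to 2.99 in set 1 and 2.45 to 2.76 in set 2, lowest in PBS replicate 3. The labels name no batch, so values within the sets are given beside the results. G-CSF replicates 4 and 5 were the closest pair of arrays (SD of their differences 0.28, next pair 0.37), and results were recomputed with these averaged as 1.

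After G-CSF, 1 of the 8 measured members changed. Phex fell 4.19-fold. Alpl and Ibsp were lower on every G-CSF array than on any PBS array, with mean changes of -0.56 and -0.52 that did not pass the adjusted threshold. Among regulators, 0 of 3 passed limma's adjusted threshold, and 1 (Sp7) had an unadjusted p under 0.05. Over all probe sets, 1.62% passed in either direction and 0.877% fell, and 2008 of 21789 had an unadjusted p under 0.05. In bulk RNA, fewer cells of a type and less RNA per cell cannot be told apart.

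**Figure D1:**
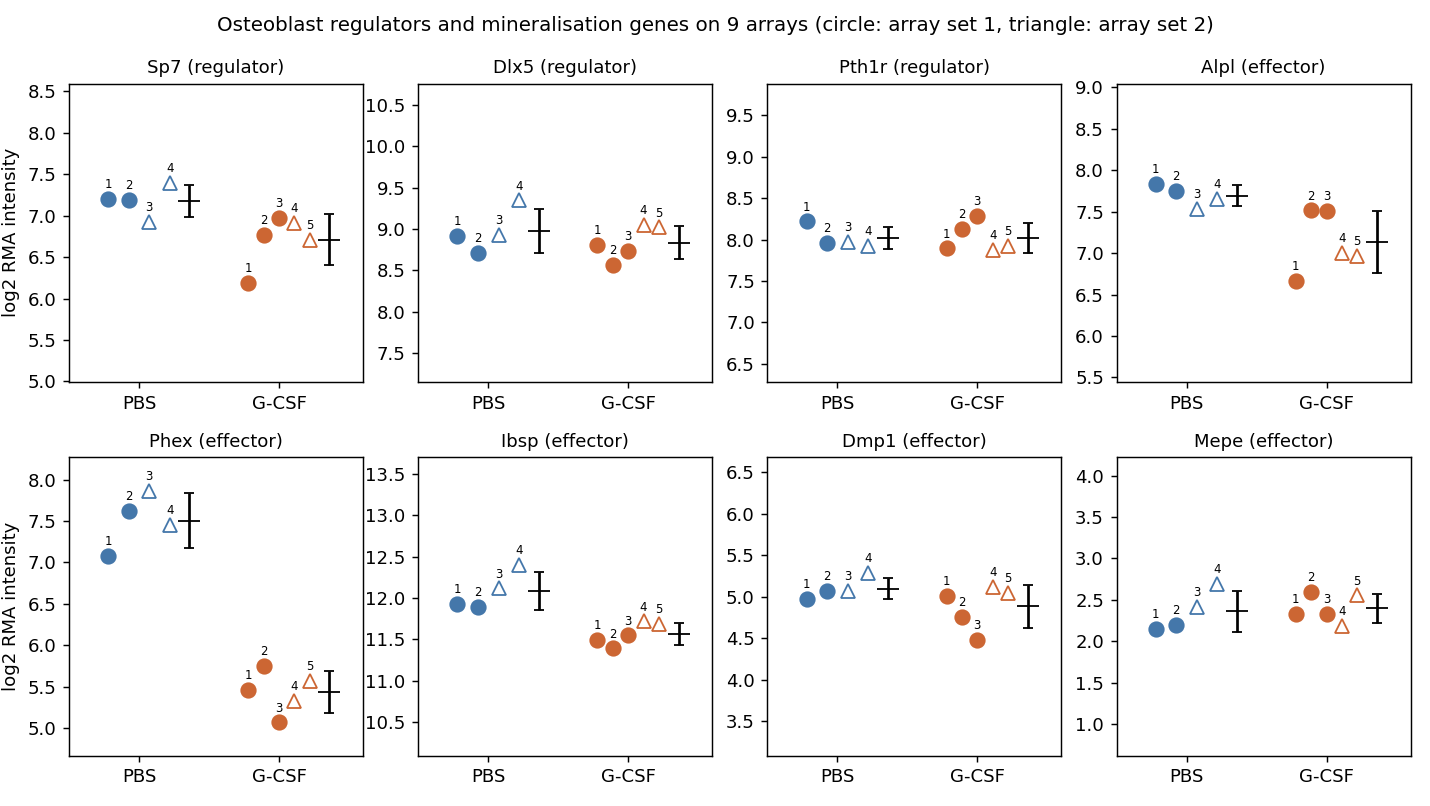
Log2 RMA intensity (vertical axes, all of the same length) of the 8 measured members on each array, with replicate numbers, circles for array set 1, triangles for array set 2, and black bars for mean ± SD (PBS n = 4, G-CSF n = 5). Phex shows a clear gap between the groups (5.07 to 5.75 against 7.08 to 7.87), Ibsp and Alpl a narrow one, and the other 5 members overlap.

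Among the regulators, Sp7, the zinc finger factor that commits progenitors to osteoblasts, was at 7.20, 7.19, 6.93 and 7.40 in PBS replicates 1 to 4. On G-CSF replicates 1 to 5 it was at 6.19, 6.77, 6.97, 6.92 and 6.71. The groups overlapped by 0.04, through PBS replicate 3 and G-CSF replicate 3, and G-CSF replicate 1 was the lowest array. The mean went from 7.18 ± 0.19 to 6.71 ± 0.31, a change of -0.47 (unadjusted 95% interval -0.86 to -0.08, adjusted p = 0.365 in limma). Within each array set the G-CSF arrays all lay below the PBS arrays, with changes of -0.56 and -0.35.

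Dlx5, a homeodomain factor of skeletal development, showed no difference beyond the spread of the arrays. It was at 8.92, 8.71, 8.93 and 9.35 in PBS and at 8.81, 8.56, 8.74, 9.05 and 9.02 in G-CSF. PBS replicate 4 was highest and the groups overlapped widely. The change was -0.14 (95% interval -0.50 to 0.22, adjusted p = 0.936 in limma), and -0.02 without PBS replicate 4. Both sets gave nearly the same change, -0.11 in set 1 and -0.11 in set 2.

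Pth1r, the receptor for parathyroid hormone and its related peptide, was at 8.22, 7.96, 7.97 and 7.92 in PBS. In G-CSF it was at 7.89, 8.12, 8.29, 7.87 and 7.93, a range that took in all PBS arrays. The means were 8.02 ± 0.13 and 8.02 ± 0.18. Their difference had a 95% interval of -0.31 to 0.31 (adjusted p = 1 in limma), which bounds a change at 1.24-fold in either direction.

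Among the effectors, Phex was at 7.08, 7.62, 7.87 and 7.46 in PBS and at 5.46, 5.75, 5.07, 5.33 and 5.57 in G-CSF. The highest G-CSF array lay 1.33 below the lowest PBS array. Phex fell from 7.51 ± 0.33 (n = 4) to 5.44 ± 0.26 (n = 5), a change of -2.07 (SE 0.19, adjusted p = 1.22e-04 in limma), or 4.19-fold (95% interval 3.16 to 5.57). By size of fall it ranked 15 among 21789 probe sets, and by p it ranked 19. The change was -1.92 in set 1 and -2.21 in set 2, with adjusted p of 0.0199 and 0.0249 within the sets. G-CSF replicate 1, the only G-CSF array whose source name says wildtype, was at 5.46, inside the range of the other 4. The Hspa9+/- label occurs only among G-CSF arrays, and 1 array cannot separate it from the treatment. With G-CSF replicates 4 and 5 averaged as 1, the change was -2.07.

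Alpl was at 7.83, 7.75, 7.54 and 7.66 in PBS and at 6.66, 7.52, 7.51, 7.00 and 6.97 in G-CSF. The G-CSF arrays spread more widely than the PBS arrays, and the gap between the groups was 0.02. The mean went from 7.69 ± 0.13 to 7.13 ± 0.37, a change of -0.56 (95% interval -0.97 to -0.15, adjusted p = 0.261 in limma). It was -0.56 in set 1 and -0.61 in set 2, where the lack of overlap follows from the gap over all arrays. G-CSF replicates 2 and 3 were close to the PBS arrays, and G-CSF replicate 1 was farthest from them.

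Of the SIBLING genes, Ibsp (bone sialoprotein), which nucleates mineral, was at 11.93, 11.90, 12.11 and 12.40 in PBS. In G-CSF it was at 11.50, 11.39, 11.55, 11.72 and 11.68. No array crossed between the groups, which stood 0.18 apart. Ibsp went from 12.08 ± 0.23 to 11.57 ± 0.13, a change of -0.52 (95% interval -0.84 to -0.19), or 1.43-fold lower, and did not pass (adjusted p = 0.150 in limma). It passed at adjusted p = 0.0317 when a further quantile normalisation was applied (change -0.63), and was at 0.0536 with the array set as a block. Over 24 alternatives its adjusted p ran from 0.0317 to 0.483. The change was -0.43 in set 1 and -0.56 in set 2.

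Dmp1, a matrix protein best known from osteocytes, was at 4.97, 5.07, 5.07 and 5.28 in PBS and at 5.01, 4.76, 4.48, 5.12 and 5.05 in G-CSF. The groups overlapped, and the change of -0.21 (95% interval -0.56 to 0.13, adjusted p = 0.828 in limma) was -0.11 without G-CSF replicate 3. The mean Dmp1 signal was at percentile 40.9 of the probe sets. Mepe, another osteocyte product, was at 2.15 to 2.69 in PBS and 2.18 to 2.59 in G-CSF, with a change of 0.04 (95% interval -0.31 to 0.38, adjusted p = 0.990). Its signal lay in the lowest 2.66% of probe sets, where an array may not resolve a change, and its change was 0.25 in set 1 and -0.18 in set 2. RMA values carry no detection call, so neither gene was called absent.

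**Figure D2:**
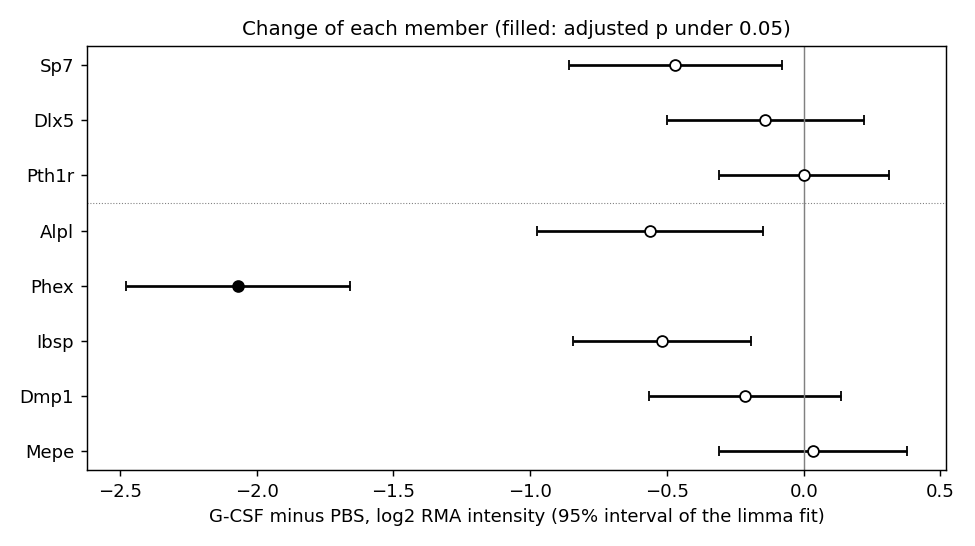
Change of each measured member, G-CSF minus PBS in log2 RMA intensity (horizontal axis), with the 95% interval of the limma fit (4 PBS and 5 G-CSF arrays), regulators above the dotted line. Phex alone passed the adjusted threshold (-2.07), the intervals of Sp7, Alpl and Ibsp lie below 0 without passing, and those of Dlx5, Pth1r, Dmp1 and Mepe span 0.

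Read as 2 groups, the 3 measured regulators had a median change of -0.14 (-0.47 to 0.00) and the 5 effectors one of -0.52 (-2.07 to 0.04). The median of all probe sets was 0.01. G-CSF arrays all lay below PBS arrays for 0 of 3 regulators and 3 of 5 effectors, against 2.46% of all probe sets below and 4.65% in either direction. Unadjusted intervals lay wholly below 0 for 4 of the 8 members (Sp7, Alpl, Ibsp and Phex), against 4.81% of probe sets, and wholly above 0 for 0, against 4.41%. The members were chosen with results of these data known, so these shares describe them and test nothing. The difference between regulators and effectors was not tested.

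The members did not share 1 order of arrays inside a group. PBS replicate 4 was the highest of the 9 arrays for 5 of the 8 members (Sp7, Dlx5, Ibsp, Dmp1 and Mepe), against 10.7% of all probe sets, but the lowest PBS array for Pth1r. Alpl was highest in PBS replicate 1 and Phex in PBS replicate 3. G-CSF replicate 1 was the lowest of the 9 arrays for Sp7 and Alpl, against 11.7% of all probe sets, while Phex was lowest in G-CSF replicate 3 and Ibsp in G-CSF replicate 2. In both array sets the mean was lower in G-CSF for 6 of 8 members, all but Pth1r and Mepe, against 25.1% of all probe sets. In 4 of them (Sp7, Alpl, Ibsp and Phex) the G-CSF arrays lay below the PBS arrays inside each set, against 4.66% of all probe sets. For Alpl, Ibsp and Phex, both findings follow from groups that did not overlap over all 9 arrays, and add nothing to that.

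**Figure D3:**
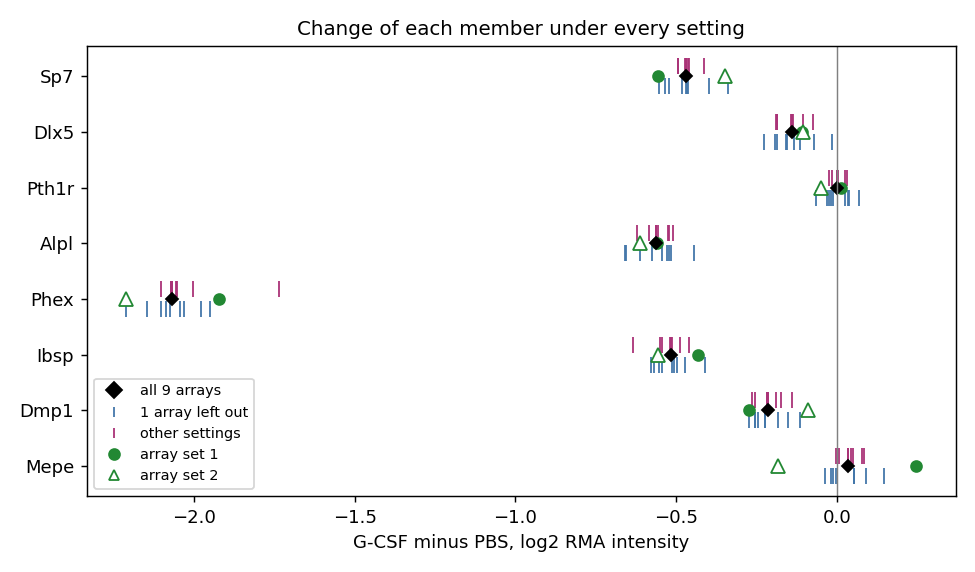
Change of each member, G-CSF minus PBS in log2 RMA intensity (horizontal axis), over all 9 arrays (diamond), with each array left out (lower ticks), under the other settings (upper ticks) and within array set 1 (circle) and set 2 (triangle). Phex stayed between -2.21 and -1.74, Sp7, Dlx5, Alpl, Ibsp and Dmp1 stayed below 0, and Pth1r and Mepe lay on both sides of 0.

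The genes whose pattern over the 9 arrays was most like that of Phex were Slco1a5, Abi3bp, Il7, Lpl and Chrdl1. Likeness was the root mean square difference of the log2 values after subtracting each gene's mean, which was 0.27 for Slco1a5, 0.29 for Abi3bp, 0.31 for Il7, 0.36 for Lpl and 0.36 for Chrdl1. Slco1a5, an organic anion transporter with close relatives, went from 6.02 ± 0.17 to 4.28 ± 0.23, and Abi3bp, a matrix protein, from 10.39 ± 0.15 to 8.38 ± 0.23. Their changes were -1.74 and -2.02 (adjusted p = 1.17e-04 and 3.78e-05 in limma). Those of Il7, a lymphoid cytokine, Lpl, lipoprotein lipase, and Chrdl1, which binds and blocks bone morphogenetic proteins, were -2.08, -1.63 and -2.56 (adjusted p = 4.78e-05, 3.73e-05 and 1.22e-06). This measure picks genes with a change of similar size, so their falls are no separate evidence.

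Other genes of the bone programme were read from the same fit by lists of related function. Over all 21789 probe sets, 2008 had an unadjusted p under 0.05. In 12 other osteoblast transcription factors, 0 rose and 0 fell (3 had an unadjusted p under 0.05), with a median of -0.04. The smallest p were those of Snai2, a repressor of epithelial genes, at 11.11 ± 0.22 and 10.68 ± 0.18 (change -0.44, adjusted p = 0.298), and Twist2, which restrains osteoblast genes, at 6.21 ± 0.28 and 6.71 ± 0.44 (0.50, adjusted p = 0.516). Of 9 partners and targets of the parathyroid hormone receptor, 0 rose and 0 fell in limma (2 had an unadjusted p under 0.05), with a median of 0.43. Arrb2, an arrestin that desensitises such receptors, was at 6.38 to 6.83 in PBS and 7.05 to 7.29 in G-CSF, without overlap (0.60, adjusted p = 0.0601). It passed under some alternatives, for instance at 0.0338 with the array set as a block. Tnfsf11, the osteoclast factor RANKL, was also higher on every G-CSF array (7.92 to 8.64 against 7.05 to 7.90), at 0.68 with an adjusted p of 0.239.

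Among 13 genes of phosphate and mineral handling, 2 rose, 0 fell and 11 did not pass, against 0.743% of all probe sets that rose. Slc20a2, a sodium-dependent phosphate transporter, was at 7.11, 7.26, 7.35 and 6.97 in PBS and at 8.50, 8.60, 8.20, 8.02 and 8.10 in G-CSF. It rose 2.17-fold with no overlap (change 1.12, adjusted p = 0.00374 in limma). Mgp, matrix Gla protein, an inhibitor of calcification, was at 11.49, 12.15, 10.69 and 11.38 in PBS and at 12.85, 12.91, 13.04, 12.78 and 12.79 in G-CSF. The PBS arrays spread far more than the G-CSF arrays, and Mgp rose 2.73-fold (change 1.45, adjusted p = 0.00774), by 1.11 in set 1 and 1.75 in set 2. G-CSF arrays all lay above PBS arrays for 4 of the 13, against 2.18% of all probe sets. The other two, named after their values were seen, were Ank, a pyrophosphate exporter (0.51, adjusted p = 0.122), and Fam20c, the kinase that phosphorylates SIBLING proteins (0.66, adjusted p = 0.0873). Fgf23 itself, also in the osteocyte list, was at 5.23 to 5.50 in PBS and 5.33 to 5.70 in G-CSF and did not pass (0.17, adjusted p = 0.864, named after its values were seen). Its mean signal was at percentile 50.2 of the probe sets. RMA values carry no detection call, so whether Fgf23 was expressed is not known.

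In 10 genes of osteoblast matrix, 3 rose, 1 fell and 6 did not pass, with a median of 0.24. Over all probe sets, 0.743% rose, 0.877% fell and 2008 of 21789 had an unadjusted p under 0.05. The list was chosen with earlier results of these data known, so its count tests nothing. Col1a1, the main collagen chain of bone, was at 6.72 to 6.95 in PBS and 7.82 to 8.54 in G-CSF (change 1.36, adjusted p = 0.00157 in limma). Mmp13, a collagenase, was at 9.93 to 10.50 and 11.58 to 12.05 (1.70, adjusted p = 1.57e-04). Bmp1, the protease that trims procollagen and also cleaves Dmp1, was at 8.43, 8.46, 7.86 and 8.11 in PBS and at 8.99, 9.42, 9.36, 9.07 and 9.08 in G-CSF. It rose 1.96-fold without overlap (0.97, adjusted p = 0.0111), and was at 0.0624 with the replicate number as a block. Omd, a small proteoglycan that binds hydroxyapatite, was at 5.80, 5.76, 4.69 and 5.32 in PBS and at 4.44, 4.46, 4.65, 4.08 and 3.81 in G-CSF. It fell by 1.11 (adjusted p = 0.0453), with its groups 0.04 apart through PBS replicate 3. Leaving out any single array except PBS replicate 3 ended the call (8 of 9 arrays), with an adjusted p of up to 0.146, reached without PBS replicate 1. Omd was also dim, with a mean signal at percentile 36.8 of the probe sets. Among 14 other settings its call was lost in 7, and its change was -0.71 with an offset of 16 before log2. Cdh11, an adhesion protein named after its values were seen, was also lower on every G-CSF array without passing (-0.53, adjusted p = 0.125). Of 6 osteocyte genes outside the members, 0 passed limma's threshold (1 had an unadjusted p under 0.05), with Cd44 at 0.52 (adjusted p = 0.323) and Fgf2 at -0.46 (adjusted p = 0.703). Dspp, the remaining SIBLING gene measured, was at 5.03 ± 0.16 and 4.77 ± 0.18 (-0.26, adjusted p = 0.708).

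**Figure D4:**
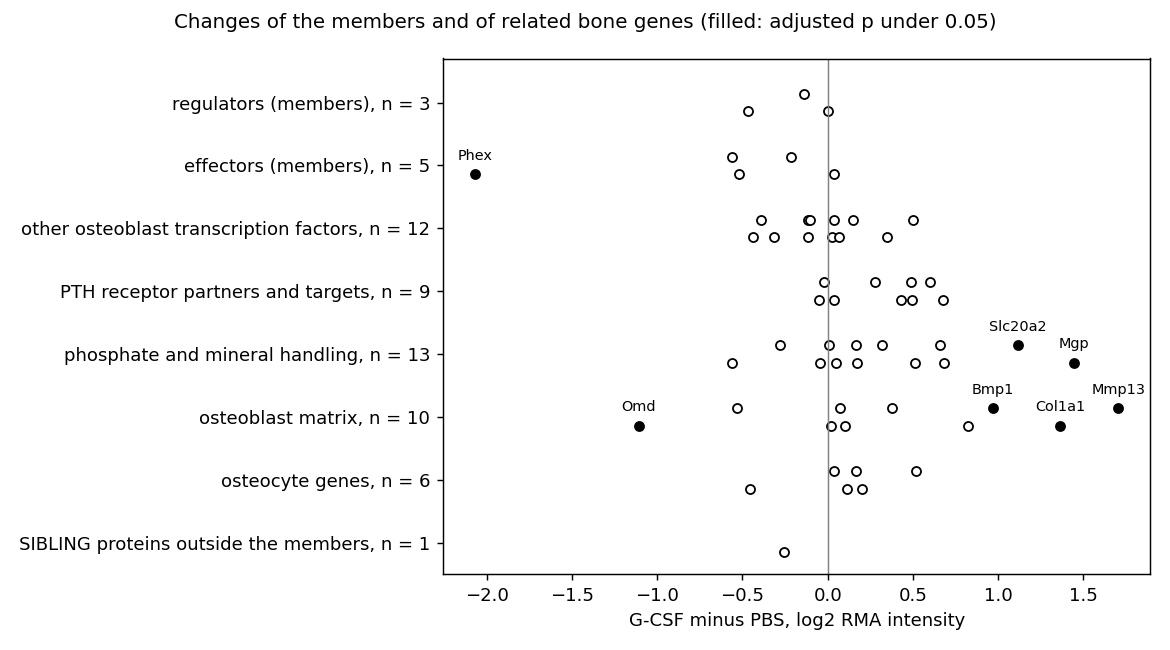
Change of every measured gene in each group of bone genes, G-CSF minus PBS in log2 RMA intensity (horizontal axis), 1 point per gene, filled and named where limma's adjusted p was under 0.05. Phex (-2.07) and Omd (-1.11) lie on the left, and Slc20a2, Mgp, Bmp1, Col1a1 and Mmp13 (0.97 to 1.70) on the right.

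Markers of CAR cells were bright on every array, with Cxcl12 at 12.21 to 12.47 in PBS and 11.93 to 12.08 in G-CSF and Lepr at 11.31 to 11.83 and 11.01 to 11.61. Both genes define these cells and neither passed (-0.36, adjusted p = 0.287, and -0.22, adjusted p = 0.839 in limma). Cxcl12 was lower on every G-CSF array than on any PBS array. The sort took cells bright for GFP at the Cxcl12 locus, so high Cxcl12 was partly set by the gate. Of 8 CAR cell markers, 3 fell (Ebf3 at -0.66, Kitl at -0.74 and Vcam1 at -1.07). Of the same 8, 6 had a negative change and 5 an unadjusted p under 0.05, with a median change of -0.51. Over all probe sets, 0.877% fell and 0.743% rose. Of these 21789 probe sets, 48.7% had a negative change and 2008 an unadjusted p under 0.05. The summed linear intensity of the 8 was 16894 to 18816 in PBS and 12595 to 13892 in G-CSF. All 12 neutrophil markers had a positive change, with a median of 0.96, of which 8 had an unadjusted p under 0.05 and 1 (Csf3r) passed the threshold. Their sums were 7982 to 19624 in PBS and 13596 to 21679 in G-CSF. The mean log2 level of these markers was 8.13 to 9.56 in PBS, highest in PBS replicate 2, and 9.05 to 9.83 in G-CSF. Of 5 erythroid markers 1 fell (Car1), as did 1 of 5 B cell precursor markers (Cd79a), and in each list 3 had an unadjusted p under 0.05. Medians were -0.38 and -0.58. Sums of erythroid markers were 172 to 652 in PBS and 119 to 168 in G-CSF, and those of B cell precursor markers 179 to 309 and 131 to 171. In limma, 0 of 7 osteoclast, 0 of 8 chondrocyte, 0 of 6 endothelial and 0 of 6 macrophage markers passed, with 0, 2, 2 and 2 at an unadjusted p under 0.05. Of the 2 endothelial ones, 1 had a negative and 1 a positive change. Sums in PBS and G-CSF were 265 to 366 and 334 to 514 for osteoclast markers, and 305 to 427 and 270 to 368 for chondrocyte markers. They were 160 to 225 and 147 to 190 for endothelial markers, and 258 to 430 and 280 to 356 for macrophage markers. RMA intensities hold no true 0, so no marker could be called absent, and the part of these markers in the changes of the members was not tested.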

How the data were processed

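Members and gene lists were chosen with earlier results of these data known. Per the submitters' processing notes, the authors computed the intensity values by RMA and used Affymetrix Expression Console. Versions and the genome build are not given in the sources used here. Per the labels' protocols, RNA of sorted cells was amplified by a PicoSL Ovation system and labelled with a NuGEN Encore biotin kit. The deposited intensity values ran from 1.73 to 15673 with array medians of 34.7 to 37.2, a linear scale, so log2 was taken here with no pseudocount. RMA scales arrays to each other, so a change in total RNA cannot be seen.

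Of 35553 probe sets, the platform table gave 21789 with 1 symbol, 1621 with several and 12143 with none, and the 21789 were tested. Genes outside the members with several probe sets were read from the brightest. limma 3.58.1 (lmFit, eBayes) in R 4.3.3 compared 5 G-CSF with 4 PBS arrays, two-sided, without covariates, with Benjamini-Hochberg adjustment over all probe sets. The limma fit was tested on simulated log2 values with known changes. The simulated noise was independent between arrays and held no array sets, so it cannot show how the fit behaves with them. The labels call the arrays biological replicates without naming animals, so p-values reflect only array-to-array spread.

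Named were the 9 listed genes, in each list of bone genes those that passed or else the 2 with the smallest p, and the 5 genes most like Phex. Cell type markers were outside this rule. Cxcl12 and Lepr and the markers that passed were named after their values were seen, and other exceptions are marked. Alternatives were the probe sets tested, a filter on dim ones, an offset of 16 before log2, the variance model, normalisation, array weights, probe set means, blocks, thresholds and each array left out. Averaging G-CSF replicates 4 and 5 was chosen after seeing the data. The number of arrays limits the precision.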

Additional observations from a re-analysis of the deposited data

Results flagged for a closer look

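Of 52 groups of arrays checked over the named genes, 3 held an array far from its others, where chance flags about 1 in 20. Pth1r in PBS replicate 1 was at 8.22, against 7.92 to 7.97 on the other PBS arrays. Col1a1 in PBS replicate 4 was at 6.95, against 6.72 to 6.74. Fgf2 in G-CSF replicate 3 was at 4.66, against 5.37 to 5.62 on the other G-CSF arrays.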

How the results depend on the processing

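Of 190 member results under 24 alternatives, 174 kept their direction and side of the threshold, 1 passed only under the alternative, 15 changed sign and 0 lost a call. Phex was called in all 24, from -1.74 with an offset of 16 before log2 to -2.21 in array set 2 alone, and from -2.21 to -1.95 with 1 array left out. Ibsp passed only after a further quantile normalisation (-0.63, adjusted p = 0.0317), where 2 effectors changed. The sign changes were those of Pth1r and Mepe, never called. Pth1r was at -0.0015 with median centring, -0.025 with array weights, -0.016 with the array set as a block and -0.049 in set 2 alone, and at -0.066 to 0.068 with 1 array left out. Mepe was at -0.0038 with the replicate block and -0.18 in set 2 alone, and at -0.036 to 0.15 with 1 array left out. With 1 array left out, Sp7 was at -0.55 to -0.34, Dlx5 at -0.23 to -0.02, Alpl at -0.66 to -0.44, Ibsp at -0.58 to -0.41 and Dmp1 at -0.27 to -0.11.

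The 353 probe sets changed became 181 over all probe sets, 598 with the array set as a block, 202 in set 1 and 59 in set 2 alone, 210 with at least 2-fold change, and 210 (without PBS replicate 1) to 318 with 1 array left out. Leaving out G-CSF replicate 1 gave 222, and G-CSF replicate 4 gave 224. The replicate block gave 180. Same-numbered arrays deviated together at 0.28, 0.14, -0.28 and 0.35, and 2 of 8 arrays correlated best with their own number, so the numbers only name arrays. Apart from Bmp1 and Omd (adjusted p = 0.143), the block changed no call of a named gene. Within single sets, Slc20a2 (0.239 in set 2), Mgp (0.0780 in set 1, 0.0679 in set 2), Col1a1 (0.154 in set 2), Bmp1 (0.126 and 0.124) and Omd (0.255 in set 2) had adjusted p above the threshold, with fewer arrays. Dim probe sets such as Mepe limit what could be seen, and Dmp1 and Mepe have no value in the fit on brighter probe sets.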
